A study of Mus musculus with 18 samples.

Results

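The receptors for interleukin-1 (IL-1) and the Toll-like receptors pass their signal through a shared adaptor, MyD88, and 7 genes of that route were followed in skeletal muscle of tumor-bearing mice. They were taken by name from the 254 genes of an inflammation panel: the IL-1 receptor chains Il1r1 and Il1rap, the Toll-like receptors Tlr4 and Tlr2, the Tlr4 partner Ly96 (the protein MD-2), the adaptor Myd88 and the regulator Tollip. The choice was by name, with no threshold on a measured value, and all 7 passed the filter on low signal that left 168 genes for testing.

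Ligand binding brings the TIR domains of these receptors together inside the cell, MyD88 docks there and recruits IRAK kinases, and the signal runs on to the transcription factors NF-kB and AP-1. IL-1 and Toll-like receptor ligands such as bacterial lipopolysaccharide can act on muscle fibers themselves as well as on the macrophages and endothelial cells of the tissue. In cancer cachexia, the tissue wasting seen with many tumors, inflammatory signals of this kind are among those studied as drivers of muscle loss.

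Tibialis anterior (TA) muscle RNA of male mice was counted with color-coded probes on the nCounter mouse inflammation panel, and the 18 samples form 6 groups of 3. C26 tumor-bearing mice of strain CD2F1 were injected with C26 colon carcinoma cells, LLC tumor-bearing mice of strain C57/B6 with Lewis lung carcinoma cells, and KPP tumor-bearing mice of strain C57/B6 formed tumors of their own after tamoxifen. Each model has its own non-tumor-bearing control group of the same strain. The labels give no ages, no KPP alleles, and no treatment for the controls, so whether KPP controls carried the KPP alleles or received tamoxifen is not known here, nor is it stated that each sample is a separate mouse, so the p-values measure the spread between these samples.

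Values below are the deposited normalized signal, in the arbitrary units of each model, and samples carry the letters A to C of their labels. Counts behind the signal totalled 29743 to 50792 in C26 tumor-bearing and 75594 to 95038 in C26 control samples, 41889 to 106940 in LLC tumor-bearing and 49808 to 91064 in LLC control samples, and 154672 to 402788 in KPP tumor-bearing and 61278 to 218643 in KPP control samples. A signal of 20 was taken as the limit below which a value is uncertain, and in LLC samples low values had been written as exactly 20. All 6 muscle fiber genes on the panel were measured in every group, and the 4 lymphocyte markers on the panel stood at or under 20 in every sample. Two-sided adjusted p-values are from limma with 1 mean per group over all 18 samples, adjusted over the 168 tested genes, and the threshold was 0.05. A positive fold change means more signal in tumor-bearing muscle; all are differences of log2(signal + 1), a scale that shrinks the changes of genes with low signal.

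The upstream sequences of Myd88 and Il1r1 are shown because these are the adaptor and the receptor chain whose signal fell in C26 muscle and for which promoters were given. They are the 250 bases before the annotated starts in RefSeq, build GRCm38.p6, in lower case and 5′ to 3′ along the gene, with motif matches in capitals. Il1r1 has 2 annotated starts.
Myd88, chr9:119340019-119340268, minus strand: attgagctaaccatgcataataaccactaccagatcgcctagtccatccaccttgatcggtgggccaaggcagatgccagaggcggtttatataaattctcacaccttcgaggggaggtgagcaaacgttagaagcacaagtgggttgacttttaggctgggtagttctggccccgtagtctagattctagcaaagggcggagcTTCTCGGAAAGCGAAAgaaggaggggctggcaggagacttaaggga
Il1r1 first start, chr1:40224830-40225079, plus strand: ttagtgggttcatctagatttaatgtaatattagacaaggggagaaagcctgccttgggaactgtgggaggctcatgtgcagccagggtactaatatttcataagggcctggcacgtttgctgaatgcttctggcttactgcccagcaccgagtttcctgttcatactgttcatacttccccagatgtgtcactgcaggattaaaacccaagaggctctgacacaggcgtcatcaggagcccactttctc
Il1r1 second start, chr1:40266336-40266585, plus strand: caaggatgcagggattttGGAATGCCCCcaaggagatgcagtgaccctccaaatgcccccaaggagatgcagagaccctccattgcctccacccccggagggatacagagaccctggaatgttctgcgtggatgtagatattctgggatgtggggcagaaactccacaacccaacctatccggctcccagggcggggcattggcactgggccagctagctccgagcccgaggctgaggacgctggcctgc

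Both strands were searched for the NF-kB consensus, the interferon-stimulated response element GAAANNGAAA, the STAT motif TTCNNNGAA and the AP-1 motif TGANTCA. In the Myd88 sequence a STAT match, 46 to 38 bases before the start, overlaps an interferon response element match 40 to 31 bases before it. The second Il1r1 start has an NF-kB consensus match on the minus strand, 232 to 223 bases before it, and the first start has no match. The Tlr2 promoter, a gene that did not pass in any model, also holds the NF-kB consensus, in overlapping matches on both strands 173 to 163 bases before the start, and those of Il1rap and Tollip hold none of the 4 motifs. In the same 250 bases of 32851 promoters, 7.25% held the NF-kB consensus, 2.98% the interferon response element, 7.02% the STAT motif and 6.75% the AP-1 motif. Promoters were given for 5 of the 7 genes (Il1r1, Il1rap, Tlr2, Myd88 and Tollip). A match is a run of letters, not a bound site.

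In C26 muscle the adaptor, an IL-1 receptor chain and the Tlr4 partner fell. Myd88, Il1r1 and Ly96 passed the test, 3 of the 7 genes, each lower in tumor-bearing muscle, and none was higher. Of all 168 tested genes 30.4% passed in C26, and 21.4% passed as lower. The median log2 fold change was -0.91 over the 7 genes and -0.31 over all tested genes. In KPP muscle 1 of the 7 passed, Tlr4, which was higher. There 11.3% of tested genes passed and 5.36% passed as higher, with medians of 0.44 over the 7 genes and 0.01 over all. In LLC muscle none of the 7 passed, and neither did any of the 168 genes (0.0%), although 4 (2.38%) had an unadjusted p under 0.05 and 8 of 129 (6.20%) passed when LLC was fitted alone over its own genes. With 7 genes, counts this small cannot show whether the pathway differs from the rest of the panel, so they describe the single genes only.

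**Figure D1:**
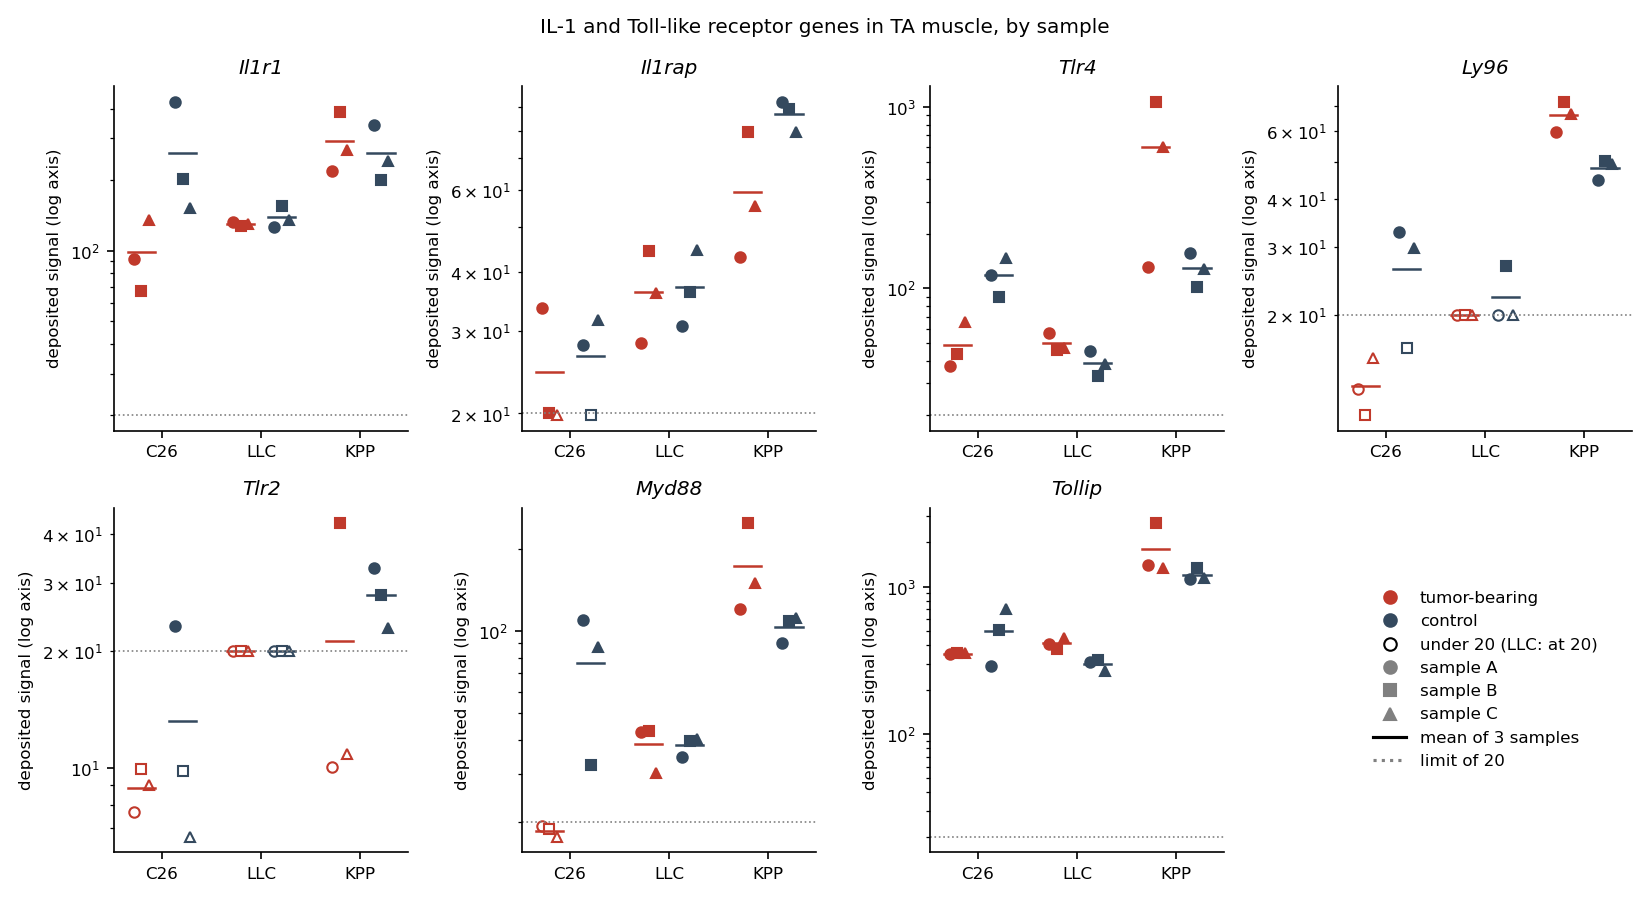
Deposited signal of the 7 genes in each of the 18 samples, on a log axis, with tumor-bearing samples (red) left of control samples (blue) in each model; symbols give the letters A to C, bars the mean of 3 samples, open symbols values under 20 (in LLC, at 20), and the dotted line the limit of 20. Myd88 lies under 20 in all 3 C26 tumor-bearing samples and Tlr4 reaches 1071 in a KPP tumor-bearing sample.

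Every call has a pair of limits. The passing genes rest on a spread shared by all 18 samples: fitted on the 6 samples of a model alone, none of the 7 genes passed in any model, where 2.38% of tested genes passed in C26, 0.0% in LLC and 4.17% in KPP (C26 adjusted p = 0.0901 for Myd88, 0.165 for Il1r1 and 0.165 for Ly96; KPP adjusted p = 0.281 for Tlr4). For genes with LLC values at the floor, those written as exactly 20 enter the shared spread with no variation among them. Such genes include Ly96 and Tlr2, and below Il1b, Il18, Tlr6, Tlr8, Nos2, Ccl5, Mmp9 and Masp1. The signal is scaled to 6 housekeeping genes that include Gapdh and Pgk1, and in C26 Gapdh was 13618, 14910 and 16655 in tumor-bearing samples A, B and C, against 7909, 10539 and 7871 in control samples. Scaled without Gapdh and Pgk1, the median log2 fold change of all tested genes in C26 moved to 0.09, and the balance of passing genes from 15 higher and 36 lower to 28 and 19; median centring gave 33 and 16 with a median of 0.16, and quantile normalization 28 and 24 with a median of 0.12. In KPP the median moved to -0.19 without Gapdh and Pgk1 and stayed at 0.04 under the other scalings.

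Il1r1, the chain that binds IL-1 alpha and IL-1 beta, was lower in C26 muscle. Its signal was 92.1, 67.3 and 135 in C26 tumor-bearing samples A, B and C, against 429, 201 and 151 in control samples. Every tumor-bearing sample lay below every control sample, and control A stood well above the other controls. The means were 98.2 ± 34.4 and 260.4 ± 148 (SD, n = 3 each), and limma gave -1.31 for the log2 fold change (SE 0.36, adjusted p = 0.0157). Il1r1 lost its call without tumor-bearing sample B (-1.07, adjusted p = 0.0725), when scaled without Gapdh and Pgk1 (-0.91, adjusted p = 0.0583) and with median centring (-0.82, adjusted p = 0.0817). Relative to the median of all genes it was -1.001 as deposited and -0.997 and -0.988 under these scalings.

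In LLC muscle Il1r1 was 132, 128 and 129 in tumor-bearing samples, against 126, 154 and 135 in control samples, with overlapping groups (log2 fold change -0.09). In KPP muscle it was 218, 389 and 266 in tumor-bearing samples, against 343, 199 and 241 in control samples, again with overlap (0.15, adjusted p = 0.856 by limma). The difference between the C26 and KPP effects on Il1r1 was -1.46 (adjusted p = 0.0636) and that between C26 and LLC -1.22 (adjusted p = 0.109), neither past the threshold.

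Il1rap, the accessory chain that the IL-1 receptor needs to signal, did not follow Il1r1. In C26 its signal was 33.6, 20.01 and 19.9 in tumor-bearing samples, against 28.1, 19.8 and 31.6 in control samples, so the values sit at the limit and the groups overlap (log2 fold change -0.13, adjusted p = 0.762 by limma). In LLC it was 28.3, 44.4 and 36.2 in tumor-bearing samples, against 30.7, 36.3 and 44.6 in control samples. In KPP it was 43.1, 79.5 and 55.4 in tumor-bearing samples, against 92.4, 89.0 and 79.5 in control samples. The KPP groups do not overlap, although the highest tumor-bearing value, 79.46, is next to the lowest control value, 79.51. The KPP log2 fold change was -0.59 (SE 0.28, adjusted p = 0.200 by limma), and it passed when scaled without Gapdh and Pgk1 (-0.79, adjusted p = 0.0350). Only Il1rap and Tlr2 had negative values in KPP among the 7 genes.

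**Figure D2:**
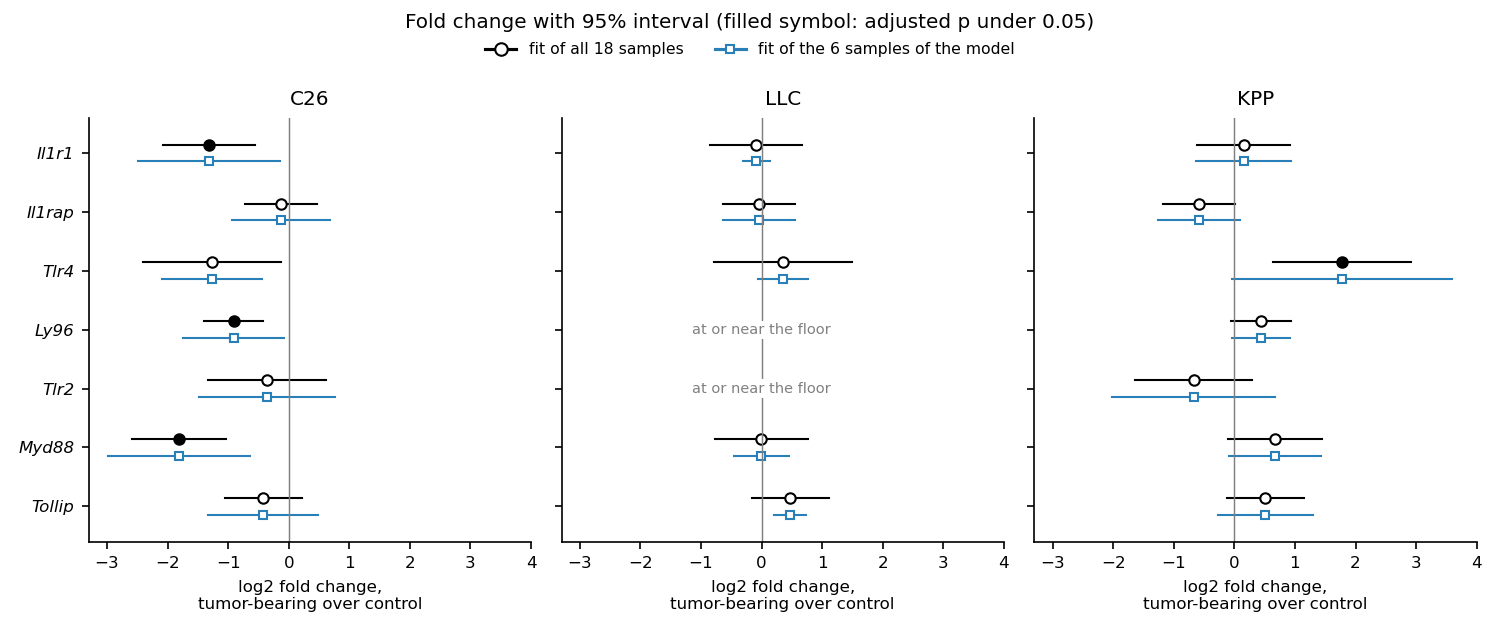
Log2 fold change of the 7 genes, tumor-bearing over control, with 95% intervals in C26, LLC and KPP, from the fit of all 18 samples (black circles) and the fit of the 6 samples of a model (blue squares). Filled symbols passed an adjusted p of 0.05: Il1r1, Ly96 and Myd88 in C26 and Tlr4 in KPP, all in the fit of 18 samples only.

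Tlr4, the receptor for bacterial lipopolysaccharide, was higher in KPP muscle, by way of 2 of its 3 tumor-bearing samples. Its signal was 131, 1071 and 603 in KPP tumor-bearing samples A, B and C, against 157, 102 and 129 in control samples. Samples B and C stood far above every control, while sample A lay inside the control range. The means were 601 ± 470 and 129 ± 27.7 (SD, n = 3 each), and limma gave 1.78 for the log2 fold change (SE 0.53, adjusted p = 0.0452). Of the 6 fits that each left out 1 KPP sample, only that without tumor-bearing sample A kept the call (2.65, adjusted p = 8.14e-05); without sample B the value was 1.14 (adjusted p = 0.181) and without sample C 1.55 (adjusted p = 0.141). Tlr4 kept the call under all 3 other scalings, with values from 1.57 to 1.92.

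KPP tumor-bearing sample B had the highest value of the 6 KPP samples for 6 of the 7 genes, all but Il1rap. It was also highest for 72 of the 157 genes above the limit in KPP (45.9%), and its Gapdh signal was 28733, against 60368 and 44724 in the other tumor-bearing samples and 43605, 58446 and 53086 in control samples. Its part in the Tlr4 result is given by the value without it, above. Macrophage and monocyte markers, of which 6 of 10 were on the panel, summed to 851 to 2221 in KPP tumor-bearing and 1236 to 1926 in KPP control samples, with none of the 6 past the test. Other cell type markers did move in KPP. The endothelial genes Flt1 and Ptgir summed to 1499 to 1918 in KPP tumor-bearing and 777 to 1014.5 in KPP control samples, and Flt1 was higher (log2 fold change 0.93, adjusted p = 0.0121 by limma). Flt1 lost its call when scaled without Gapdh and Pgk1 and in the fit of KPP alone (adjusted p = 0.0770 by limma). Of 6 connective tissue genes 5 were on the panel, with sums of 1699 to 1884 in KPP tumor-bearing and 3828 to 5443 in KPP control samples; C7 (-2.60), C1ra (-1.59) and C3 (-1.51) were lower and Masp1 (1.18) higher. The fat cell gene Cfd was 420 to 921 in KPP tumor-bearing and 1200.5 to 5037 in KPP control samples and did not pass the test. Of the neutrophil markers Mmp9 and Cxcr2, Mmp9 was 15.59 to 24.24 in KPP tumor-bearing and 53.56 to 67.65 in KPP control samples. Mmp9 passed as lower (-1.56, adjusted p = 0.0337 by limma), also in KPP alone (adjusted p = 0.0317), but not under quantile normalization. Cxcr2 went the other way, averaging 19.2 in KPP tumor-bearing and 2.45 in KPP control samples, and was not tested. The part of these cells in the Tlr4 result was not tested.

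In C26 muscle Tlr4 ran the other way. Its signal was 37.5, 43.6 and 65.6 in C26 tumor-bearing samples, against 118, 89.3 and 147 in control samples, without overlap (log2 fold change -1.27, SE 0.53), but it missed the threshold (adjusted p = 0.0862 by limma). In LLC it was 56.7, 45.7 and 47.1 in tumor-bearing samples, against 45.4, 32.8 and 38.3 in control samples, also without overlap (0.36, adjusted p = 1). The C26 and KPP effects on Tlr4 differed by -3.04 on the log2 scale (SE 0.75, adjusted p = 0.0125 by limma); this passed under 22 of 23 alternatives and not in the fit without the LLC samples (adjusted p = 0.0640).

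Ly96, the partner that holds lipopolysaccharide on Tlr4, was lower in C26 muscle, but at the edge of what the panel measured. Its signal was 12.9, 11.01 and 15.5 in C26 tumor-bearing samples, against 32.9, 16.5 and 29.9 in control samples. Every tumor-bearing value and control B lie under 20, and the tumor-bearing values rest on 7.1 to 9.9 counts above background. The log2 fold change was -0.91 (SE 0.23, adjusted p = 0.0109 by limma), and the call ended when values under 20 were set to 20 (-0.42, adjusted p = 0.0985) and under each other scaling, with values from -0.54 to -0.45. The shared spread behind this SE includes the LLC values written as exactly 20. In the fit of C26 alone the SE was 0.345 (adjusted p = 0.165 by limma).

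In KPP muscle Ly96 was 59.7, 71.6 and 66.6 in tumor-bearing samples, against 45.0, 50.3 and 49.4 in control samples. The groups do not overlap, but the log2 fold change of 0.44 (SE 0.23) did not pass (adjusted p = 0.232 by limma). In LLC only control B, at 26.9, lay above the floor of 20, so no change can be read there. The C26 and KPP effects on Ly96 differed by -1.35 (SE 0.33, adjusted p = 0.0111 by limma). That difference passed under 20 of 23 alternatives, and not without Gapdh and Pgk1 (-0.76, adjusted p = 0.105), with median centring (-0.91, adjusted p = 0.0570) or without the LLC samples (adjusted p = 0.0550).

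Tlr2, the receptor for bacterial lipoproteins, was too low for a comparison in 2 of the 3 models. In LLC all 6 samples were at the floor of 20. In C26 only control A, at 23.2, passed 20, and the others lay between 6.63 and 9.89. In KPP Tlr2 was 10.0, 42.7 and 10.9 in tumor-bearing samples, against 32.7, 27.8 and 22.9 in control samples. Tumor-bearing sample B was the highest of the 6 and the other 2 were the lowest, so the groups overlap (log2 fold change -0.67, adjusted p = 0.365 by limma). Tumor-bearing samples A and C lay under 20 and rest on 7.9 and 9.8 counts above background. Without sample B the value was -1.32 (adjusted p = 0.0354 by limma), but it depends on those low values and no size is read from it.

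Myd88, the adaptor on which all of these receptors converge, fell in C26 muscle by 3.51-fold. Its signal was 19.4, 18.9 and 17.7 in C26 tumor-bearing samples, against 109, 32.4 and 87.6 in control samples. The tumor-bearing samples lie within 2 units of each other, all just under 20, and control B is much lower than the other controls while still above every tumor-bearing sample. The means were 18.7 ± 0.84 and 76.5 ± 39.7 (SD, n = 3 each), and limma gave -1.81 for the log2 fold change (SE 0.36, adjusted p = 0.00318). The tumor-bearing values correspond to 8.1 to 16.8 counts above background, against 38.7 to 135.8 in control samples.

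The Myd88 call in C26 was kept in each of the 6 fits that left out a C26 sample (-2.33 to -1.47) and under each of the 3 other scalings (-1.41 to -1.30). In KPP muscle Myd88 was 121, 248 and 150.2 in tumor-bearing samples, against 90.7, 108 and 111 in control samples. Every KPP tumor-bearing sample exceeded every control sample, yet the log2 fold change of 0.67 (SE 0.36) did not pass (adjusted p = 0.244 by limma); it passed under quantile normalization (0.78, adjusted p = 0.0479). In LLC it was 42.8, 43.0 and 30.2 in tumor-bearing samples, against 34.8, 39.8 and 40.4 in control samples, a log2 fold change of 0.00.

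The effect on Myd88 differed between models. The C26 effect lay 2.48 log2 units below the KPP effect (difference -2.48, SE 0.51, adjusted p = 0.00479 by limma) and below the LLC effect by nearly as much as the C26 change itself (difference -1.81, SE 0.51, adjusted p = 0.0350). The first difference passed under all 23 alternatives and the second under 9 of 22. Of the 7 genes, 3 had a passing difference between C26 and KPP (Myd88, Tlr4 and Ly96), where 16.1% of all tested genes passed; 1 had one between C26 and LLC, where 14.9% passed; and none had one between KPP and LLC, where 0.595% passed.

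Tollip, a protein that binds IRAK kinases and Toll-like receptors and has been described as a brake on their signaling, did not pass in any model. In C26 it was 346, 355 and 353 in tumor-bearing samples, against 291, 508 and 707 in control samples. The tumor-bearing values are nearly identical and lie inside the wide control range (log2 fold change -0.42, adjusted p = 0.294 by limma), and without control A the value was -0.77 (adjusted p = 0.0469). In LLC it was 411, 378 and 452 in tumor-bearing samples, against 306, 317 and 268 in control samples, all tumor-bearing samples above all controls (0.47, SE 0.30, adjusted p = 1; adjusted p = 0.111 in the fit of LLC alone). In KPP it was 1394, 2702 and 1344 in tumor-bearing samples, against 1126, 1349 and 1145 in control samples, with 1 tumor-bearing value just inside the control range (0.51, adjusted p = 0.289).

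Groups did not overlap in C26 for Il1r1 and Tlr4 (both lower), in LLC for Tlr4 and Tollip (both higher), and in KPP for Myd88 and Ly96 (higher) and Il1rap (lower). Among all genes above 20 in at least 3 of a model's samples, 42.2% had no overlap in C26 muscle. The share was 27.1% for LLC and 29.9% for KPP. Myd88 in C26 is not named among these because only its 3 controls reached 20, so its groups could not overlap; the panel's shares include such genes. Ly96 in C26, above 20 in 2 samples, was under the limit.

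Levels in different models were scaled and background-corrected differently and are set side by side only as a percentage of each model's housekeeping mean. That percentage does not undo the difference in background, so the place of the LLC groups in these orders is uncertain. On that scale Myd88 was lowest in C26 tumor-bearing muscle, at 3.51 ± 0.158%, followed by KPP control (5.85 ± 0.634%), LLC control (6.48 ± 0.524%), LLC tumor-bearing (6.54 ± 1.24%), KPP tumor-bearing (9.77 ± 3.75%) and C26 control muscle (14.4 ± 7.46%; SD, n = 3 each). Only the lowest step is wider than the SDs on either side of it. Tlr4 ran from 6.57 ± 1.07% in LLC control through 7.31 ± 1.57% in KPP control, 8.43 ± 1.01% in LLC tumor-bearing, 9.20 ± 2.78% in C26 tumor-bearing and 22.2 ± 5.43% in C26 control to 34.0 ± 26.6% in KPP tumor-bearing muscle. The step up to C26 control exceeds the SDs on either side, and the others do not. For Il1r1 the 5 groups other than C26 control lay between 14.7% and 23.4%, and C26 control was at 48.9 ± 27.8%.

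**Figure D3:**
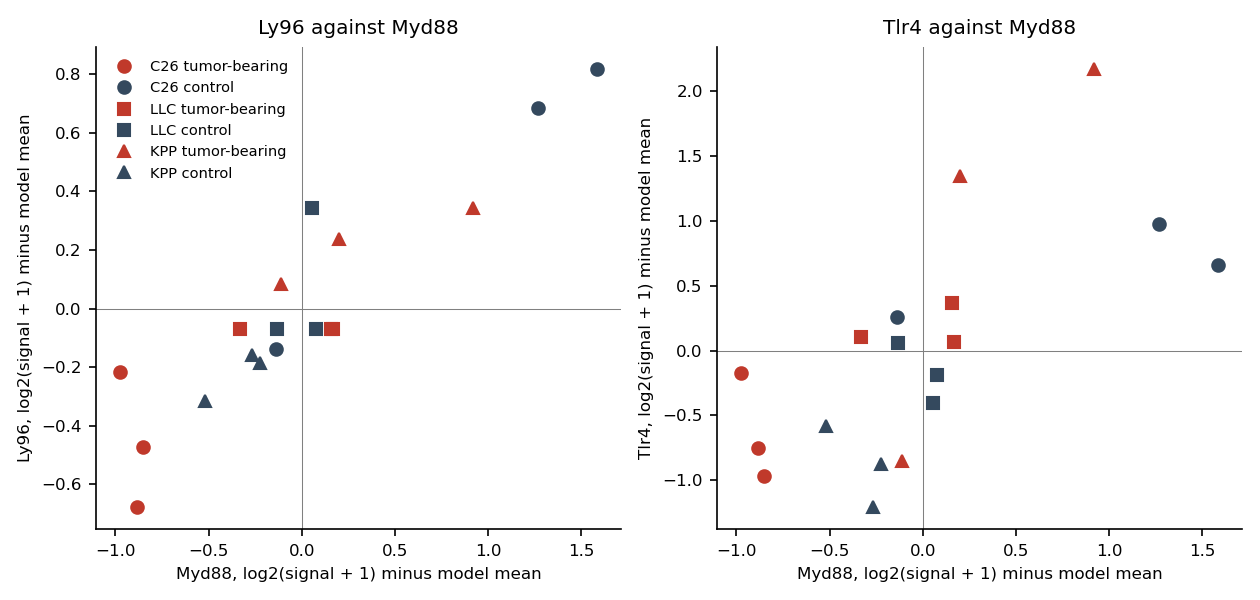
Ly96 (left) and Tlr4 (right) against Myd88 in the 18 samples, each as log2(signal + 1) minus the mean of the 6 samples of its model; red marks tumor-bearing and blue control samples, and shapes mark the models. Ly96 and Myd88 run along 1 diagonal in C26 and KPP (r = 0.95 over 12 samples), while most LLC values of Ly96 are at the floor.

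Across the 18 samples, after the mean of each model was removed, Ly96 was the gene most like Myd88 and Myd88 the gene most like Ly96 among the 135 genes compared (Pearson r = 0.92, Spearman rho = 0.89). With the 2 samples farthest from the Myd88 median left out r was 0.82, around the group means it was 0.78, and over the 12 C26 and KPP samples 0.95. These are descriptions, since the points share their scaling and part of the correlation is the group difference itself. Next to Myd88 came Myc (0.87) and Cfl1 (0.83). Tlr4 was most like Hspb1, Maff and Nfe2l2 (each 0.88), stress response genes, and Tollip most like Keap1 (0.93), Daxx (0.92) and the housekeeping gene Hprt (0.88). Il1r1 was most like C4a, Tyrobp and C1qa (each 0.90), a complement gene, a myeloid adaptor and a macrophage complement gene; with the 2 samples farthest from the Il1r1 median left out these were 0.86, 0.65 and 0.68. Tlr2 was most like C2 (0.80), Ifit2 (0.79) and Irf1 (0.74). Il1rap had no close counterpart, its highest value being 0.58 with Mafg, and its correlation with Il1r1 was 0.16.

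Markers of several cell types moved with the C26 result. The 6 of 10 listed macrophage and monocyte markers on the panel summed to 228 to 498 in C26 tumor-bearing and 665 to 3239 in C26 control samples, and 4 of the 6 were lower (C1qa -2.20, C1qb -2.25, Tyrobp -1.55 and Cd163 -1.78). Connective tissue genes, 5 of 6 on the panel, summed to 699.6 to 1384 in C26 tumor-bearing and 1724 to 5811 in C26 control samples, with C3 (-2.43) and C1s (-1.18) lower and C7 (0.98) and Masp1 (0.96) higher. The sum of the endothelial genes was 236 to 299 in C26 tumor-bearing and 231 to 265 in C26 control samples, and neither gene passed. Cfd, a fat cell product, was 47.0 to 87.4 in C26 tumor-bearing and 1390 to 9604 in C26 control samples, and passed as lower (-5.63, adjusted p = 0.000253 by limma). Both neutrophil markers on the panel, Mmp9 and Cxcr2, were at or under 20 in all C26 samples. Mmp9 still passed as lower there (-1.44, adjusted p = 0.0254 by limma), but under none of the other scalings. Muscle fiber genes summed to 4121 to 5027 in C26 tumor-bearing and 2465 to 4148 in C26 control samples, with Mef2c (1.16) and Hspb2 (0.77) higher and Hdac4 (-1.50) lower. Mef2c has the largest part in this sum, averaging 2713 in C26 tumor-bearing and 1325 in C26 control samples. Under the 3 other scalings C1qa, C1qb, C3, C7, Masp1, Cfd, Mef2c, Hspb2 and Hdac4 kept their calls. Tyrobp lost its call with median centring, and Cd163 and C1s lost theirs with median centring and without Gapdh and Pgk1. Fitted on C26 alone, only Cfd passed among these markers. In bulk muscle, fewer cells of a type and less RNA per cell cannot be told apart. The part of these cells, of the scaling genes and of the lower counts of tumor-bearing samples in the C26 values of Myd88, Il1r1 and Ly96 was not tested.

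The rest of the pathway was thinly covered, and no IRAK kinase, Traf6 or Cd14 was among the genes analysed. The median log2 fold changes in C26 were -1.29 for the tested ligands, -0.60 for other receptors, 0.04 for kinases, -1.12 for NF-kB subunits, 0.41 for interferon regulatory factors and -0.74 for target genes, beside -0.31 for all tested genes. The medians of ligands, other receptors and interferon regulatory factors are the values of Il18, Tlr5 and Irf3. In C26, Il18 and Tlr5 each reached 20 in only 1 control sample and Irf3 in no sample, so no trend is read from these medians. Of 6 ligands and antagonists on the panel 3 were tested, and in C26 Il1b, the main secreted IL-1, was lower and none was higher. Its signal averaged 5.07 ± 3.94 and 21.9 ± 19.6 (SD, n = 3 each), under 20 in all 3 tumor-bearing samples and in 2 of 3 controls (log2 fold change -1.83, adjusted p = 0.0288 by limma), and of the 3 other scalings it passed only with quantile normalization. Of 8 other receptors 5 were tested and only Tlr8, an endosomal RNA sensor, passed in C26 (-2.33), with 1 control above 20 and every tumor-bearing sample below it. No ligand or other receptor passed in LLC or KPP. Il18 in KPP just missed the threshold (-2.20, adjusted p = 0.0507) and passed under all 3 other scalings, and Tlr6 passed there with quantile normalization. Every KPP tumor-bearing value of Il18 lay under 20 and only 2 of 3 control values reached it, so no size is read from the Il18 change.

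Among the 3 kinases Map3k7, which encodes TAK1 and acts downstream of MyD88, was higher in C26 muscle, with 597 ± 123 in tumor-bearing and 380 ± 64.0 in control samples (log2 fold change 0.65, SE 0.20, adjusted p = 0.0261 by limma). Ripk2, the kinase of the NOD receptors, was lower there (-0.89), but under none of the other scalings. Of the 3 NF-kB subunits 2 were lower in C26 and none higher. Rela averaged 70.1 ± 1.81 and 158 ± 48.5 (-1.12, adjusted p = 0.0115), and Relb 85.0 ± 23.8 and 239 ± 101 (-1.43, adjusted p = 0.0109), in C26 tumor-bearing and C26 control samples (SD, n = 3 each, limma). Relb kept its call under all 3 other scalings, Rela only without Gapdh and Pgk1. No kinase or NF-kB subunit passed in LLC or KPP.

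Of 3 interferon regulatory factors Irf5, which binds MyD88 in Toll-like receptor signaling, was higher in C26 muscle, with 117 ± 43.4 in tumor-bearing and 25.2 ± 20.6 in control samples (log2 fold change 2.36, SE 0.56, adjusted p = 0.00830 by limma). Only 1 of the 3 C26 control values of Irf5 reached 20. Its values in the other models were negative and did not pass (-1.25 in LLC, -1.33 in KPP). Of 13 target genes of these receptors 6 were tested. In C26 Nos2, the inducible nitric oxide synthase, was higher, with 31.7 ± 3.12 in tumor-bearing and 11.98 ± 2.29 in control samples (1.34, SE 0.19, adjusted p = 0.000277), and Il1b was lower. Every C26 control value of Nos2 (9.79 to 14.35) lay under 20, so the size of its change is uncertain.

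In KPP the transcription factor gene Cebpb was higher among the target genes, with 4303 ± 1809 in tumor-bearing and 1598 ± 71.7 in control samples (log2 fold change 1.34, SE 0.29, adjusted p = 0.0117 by limma). The chemokine gene Ccl5 was lower there, averaging 1.37 ± 0.322 in tumor-bearing and 32.9 ± 22.1 in control samples (adjusted p = 0.0162). Every tumor-bearing value (1.11 to 1.73) and control A (8.12) lay under 20, so the fitted log2 fold change of -3.51 depends on the pseudocount and no size is read from it. Il6, Tnf, Cxcl1 and Cxcl2 did not reach 20 in the 3 samples needed for a test. Fitted on C26 alone, none of the C26 calls in these lists remained; in KPP alone Ccl5 did.

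**Figure D4:**
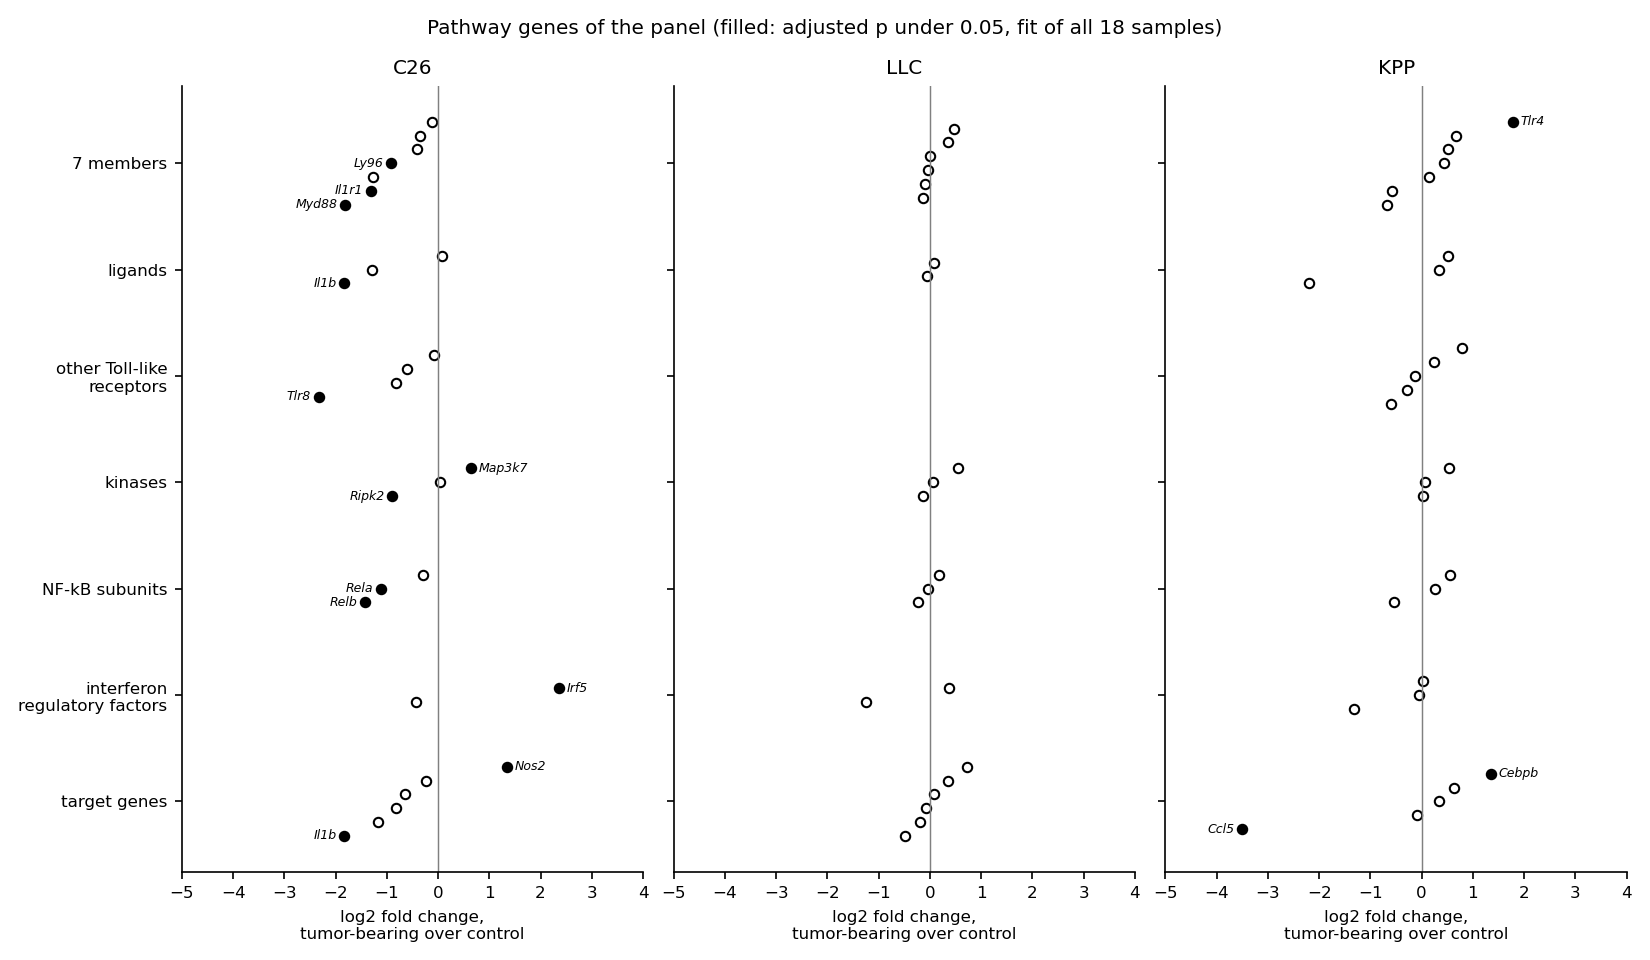
Log2 fold change, tumor-bearing over control, of the 7 genes and of the other tested pathway genes by list in C26, LLC and KPP; filled symbols with names passed an adjusted p of 0.05 in the fit of 18 samples, and genes with no sample above the limit in a model are left out there. Passing genes lie on both sides of 0 in C26, and there is none in LLC.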

How the data were processed

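The nCounter panel was loaded with 100 ng of total RNA from each of 18 TA muscle samples, per the labels. What was deposited is a normalized signal; the authors' steps to it were not found in the sources at hand. The values themselves show that within each model the geometric mean of 6 housekeeping genes is equal in every sample (532.0 in C26, 591.2 in LLC, 1769.1 in KPP), that a background was subtracted in C26 and KPP, and that LLC values under 20 were written as 20. Low values lie on steps of 0.603 to 3.222 per count, which gives the counts behind them; their number limits the precision of low genes.

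Groups and letters come from the sample titles. Genes with at least 3 of 18 samples at 20 or more (LLC only above 20) were kept, 168 of 248, leaving out the 6 housekeeping genes. limma 3.58.1 in R 4.3.3 fitted log2(signal + 1) with 1 mean per group (12 residual degrees of freedom), moderated variances and Benjamini-Hochberg adjustment, and was tested on simulated data. Tumor-bearing was set against control in each of the 3 models, and the 3 effects against each other. SE is limma's, SD that of 3 deposited values. The 7 genes, the pathway lists, the marker lists and the alternatives were chosen with earlier results of these data known; the named genes are these 7, list genes that passed, and for each of the 7 the 3 genes with the highest correlation. Alternatives were pseudocounts of 5 and 20, no filter, a filter minimum of 50, a floor of 20 in every model, median centring, scaling without Gapdh and Pgk1, quantile normalization, trend and robust moderation, each model alone, the letters as a replicate block and each sample left out. A fit without LLC samples was added after seeing the data. Deviations of same-lettered samples from their group means had correlations of -0.33 to 0.24. With 3 samples per group these cannot show whether the letters pair samples, and the main fit used no pairing. No scanner or cartridge was named, so no batch was tested.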

Additional observations from a re-analysis of the deposited data

Results flagged for a closer look

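For 4 differences between models the test of the difference itself passed. The C26 effect on Myd88 (-1.81) differed from the KPP effect (0.67) by -2.48 (adjusted p = 0.00479 by limma) and from the LLC effect (0.00) by -1.81 (adjusted p = 0.0350). In the second case the LLC values overlap, so the size of the difference is that of the C26 change. This second difference passed under only 9 of 22 alternatives. The effect on Tlr4 differed by -3.04 between C26 (-1.27) and KPP (1.78) (adjusted p = 0.0125), and that on Ly96 by -1.35 between C26 (-0.91) and KPP (0.44) (adjusted p = 0.0111). In the fit without the LLC samples only Myd88 kept its difference between C26 and KPP (adjusted p = 0.0336), against 0.0640 for Tlr4 and 0.0550 for Ly96. C26 and KPP mice differ in strain, in the way the tumor arose and in how the signal was scaled, and these cannot be told apart. C26 and LLC mice differ in strain, in the injected tumor cells and in how the signal was scaled and background-corrected, which cannot be told apart either.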

How the results depend on the processing

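Over 27 fold changes and differences of the 7 genes, the alternatives left 462 values with the same direction and side of the threshold, 42 lost the call, 10 gained one and 18 changed sign. The number of passing genes in C26 (51) was 4 in the fit of C26 alone, 6 over its own genes alone, 19 without the LLC samples and 30 to 53 with a sample left out, 31 without tumor-bearing A and 30 without B. In KPP (19) it was 7, 6 and 2 in the same fits and 8 to 16 with a sample left out, 11 without control A, 10 without control C and 8 without tumor-bearing C. In LLC (0) it was 8 over its own genes alone. Of the 7 genes, 3 passed in C26, with 1 left without Gapdh and Pgk1, 1 with median centring, 0 and 0 in the fits of C26 alone, 1 without the LLC samples and 2 to 4 with a sample left out. In KPP 1 passed, with 0 without the filter, 2 without Gapdh and Pgk1, 2 with quantile normalization, 0 and 0 in KPP alone, 0 without the LLC samples and 0 to 1 with a sample left out. Passing differences between models (4) numbered 2 with median centring and 3 to 7 with a sample left out, 7 without KPP tumor-bearing A. Those between C26 and KPP (3) numbered 1 without the LLC samples.

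With the letters as a replicate block, 2 genes passed in KPP and none of the 7 (Tlr4 1.78, adjusted p = 0.117), 2 of the 7 passed in C26 (Il1r1 -1.31, adjusted p = 0.0530), and 3 differences did. The correlations of same-lettered samples were -0.15 to 0.10 (C26), -0.0017 to 0.24 (LLC) and -0.33 to 0.03 (KPP). With 3 samples per group they cannot show whether the letters pair samples.

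No value that changed sign had passed the threshold. In C26 without Gapdh and Pgk1, with median centring and with quantile normalization, Il1rap was 0.27, 0.35 and 0.34 and Tlr2 0.011, 0.083 and 0.089, and Tollip was 0.069 with median centring. With a sample left out, Il1rap in C26 ran from -0.37 to 0.010, Tlr2 in C26 from -0.72 to 0.11, Il1rap in LLC from -0.19 to 0.12, Myd88 in LLC from -0.086 to 0.16 and Il1r1 in KPP from -0.079 to 0.37. Myd88 in LLC was 0.0020 with a pseudocount of 20, and Il1r1 in KPP -0.053 without Gapdh and Pgk1. Fewer samples and fewer genes enter the fits of a model alone; for the other settings the cause was not tested. Values under 20, which include Myd88 and Ly96 in C26 tumor-bearing muscle, rest on few counts. LLC values of Tlr2 and Ly96 are not among the 27, since they follow the floor: under the 3 other scalings Ly96 lay between -0.28 and -0.13 and Tlr2 between -0.14 and 0.00.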
